A study of Saccharomyces cerevisiae with 4 samples.

Results

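The genes described here are 10 chaperone genes of budding yeast (Saccharomyces cerevisiae), taken by systematic name from a list of the cytosolic Hsp70, Hsp90 and Hsp104 machinery. They were SSA1, SSA2, SSA3, SSA4, SSB1, SSB2, SSE1, HSP82, HSC82 and HSP104, and all 10 had a row among the 6207 reading frames of the array. A value on all 4 arrays was present for 8 of the 10. Cells were a wsc1 mutant in the laboratory strain background BY4741, grown in YEPD medium at 24 °C. Wsc1 spans the plasma membrane and reports cell wall damage to the Pkc1 and Slt2 kinases. Each culture was split, and the Congo Red part received the dye at 30 µg/ml while the other part went on growing without it. Cells were collected at 4 h. Both parts carried the wsc1 mutation, the labels do not say which allele it is, and no strain with an intact WSC1 was used here. Congo Red RNA and untreated RNA of a culture were hybridised together on 2-colour arrays, with Congo Red RNA in Cy5 on arrays 2 and 4 and in Cy3 on arrays 1 and 3. Per the series' design text, the 4 arrays came from 2 cultures with a dye swap each. The sources used here do not tie an array to its culture.

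Hsp70 proteins bind exposed hydrophobic stretches of other proteins and release them in cycles driven by ATP, which J proteins start and nucleotide exchange factors reset. Hsp90 acts later, on kinases, receptors and other clients that Hsp70 hands on, and Hsp104 pulls proteins out of aggregates so that Hsp70 can refold them. In yeast, several of these genes come as paralogs, with 1 copy made under all growth conditions and another made mainly on heat or other stress. Hsf1 drives the heat-inducible copies, and Msn2 and Msn4 add to the transcription of some of them.

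Values are log ratios of the 2 channels, called log units here and read as log2, since the sources used here name neither the log base nor the numerator. They were read as Congo Red over untreated and as already turned for the dye swap. The basis was a list of 20 cell wall integrity targets, genes that Slt2 signalling switches on. Of the 18 targets tested, 17 lay above 0 on all 4 arrays, led by the wall protein gene NCW2 at a mean of 3.30. If arrays 2 and 4 were turned, 0 would have a single sign, which for those 17 follows from the first count. The direction is therefore likely, not settled. Across reading frames, arrays of the same dye orientation correlated at Pearson r = 0.71 (arrays 2 and 4) and 0.64 (arrays 1 and 3). Arrays of opposite orientation correlated at -0.053 to 0.33. These coefficients run across genes, which are not independent replicates. Array medians lay between -0.14 and -0.082, and 19.6 to 47.6% of the reading frames were empty on an array. The number of arrays limits the precision.

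The first question is whether Congo Red changed the transcripts of these chaperones in the mutant. None of the 8 chaperones with 4 values was called when the larger p of both possible pairings of arrays into cultures was kept. With arrays 1 and 4 taken as a culture, SSA1 alone of the 8 was called, in a fit that called 787 of all 3080 tested reading frames. Their means lay between -0.26 (SSA1) and 0.059 (SSE1), and their median of -0.039 stood beside a median of -0.10 for all 3080 tested reading frames. In the test used, limma on the means of each culture's 2 arrays, 0 of 8 passed an adjusted p of 0.05 and 1 of 8, SSA1, had an unadjusted p below 0.05. The same test called 2.6% of all tested reading frames, and 807 of them were below 0.05 unadjusted. Limma on single arrays, with dye orientation as a term, also called 0 of the 8, against 10.4% of all tested reading frames. There 2 of the 8 had an unadjusted p below 0.05, beside 1112 of all 3080. The replicate is the culture (n = 2). SEs near 0.087, the smallest in the fit, come mostly from the variance pooled over genes and say little of how far 1 gene's cultures differed. The p-values rest on these SEs, so they combine the spread between the 2 cultures with that pooled variance, under an assumed pairing of arrays.

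**Figure D1:**
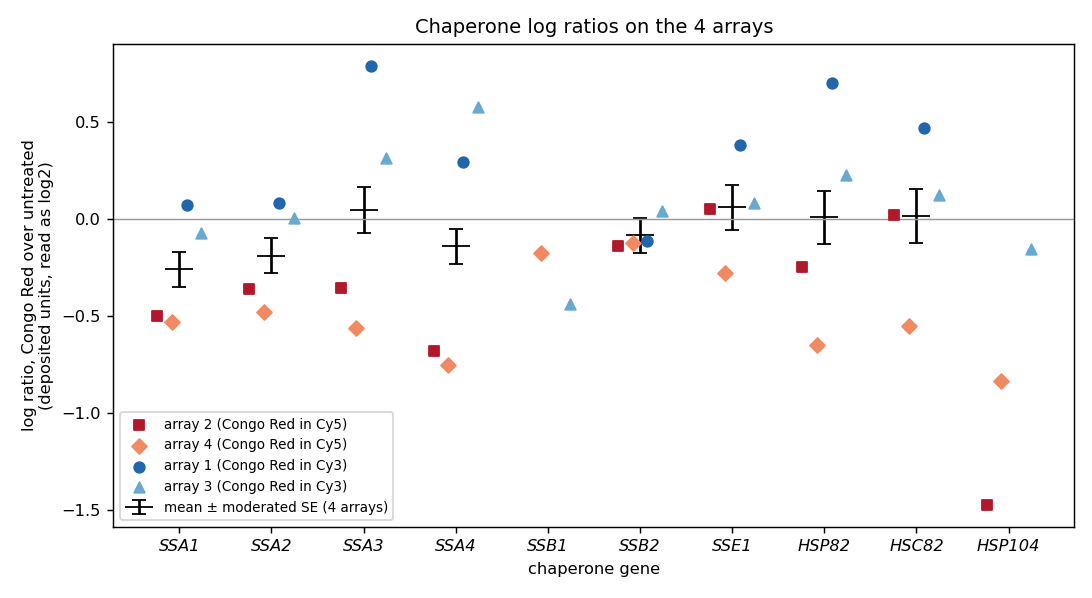
Log ratios of the 10 chaperone genes, Congo Red over untreated in deposited units read as log2, on each of the 4 arrays. Red and orange symbols are arrays with Congo Red in Cy5, blue symbols arrays with Congo Red in Cy3, and the black bar is the mean with its moderated SE for genes with 4 values. In the 8 genes with 4 values, the red and orange symbols lie below the blue ones, an order found in 31.9% of all tested reading frames.

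Among the Ssa proteins, the general cytosolic Hsp70s, SSA1 and SSA2 gave nearly the same profile. SSA1 (YAL005C), which is made in unstressed cells and more so on heat, was at -0.50 and -0.53 on arrays 2 and 4 (Congo Red in Cy5) and at 0.070 and -0.075 on arrays 1 and 3 (Congo Red in Cy3). SSA2 (YLL024C), the constitutive copy, was at -0.36 and -0.48 on arrays 2 and 4 and at 0.079 and 0.0022 on arrays 1 and 3. Both genes were thus low on the arrays with Congo Red in Cy5 and near 0 on the others. The orientations did not overlap, an order found in 31.9% of all tested reading frames. The mean of SSA1 was -0.26 ± 0.09 (moderated SE, n = 2 cultures, limma adjusted p = 0.175), which is 0.835-fold if the log base is 2. Its 95% interval from the moderated fit, -0.50 to -0.024, lay below 0 before adjustment for the number of genes tested. SSA2 had a mean of -0.19 ± 0.09 (limma adjusted p = 0.246) with an interval of -0.43 to 0.048.

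The stress-inducible Ssa genes had the largest SD over the 4 arrays among the members with 4 values, followed by HSP82. SSA4 (YER103W), the Ssa copy that heat raises from a low level, was at -0.68 and -0.75 on arrays 2 and 4 and at 0.30 and 0.58 on arrays 1 and 3. On array 4, only 0.681% of the reading frames measured there lay lower than SSA4, while on array 3 the share below it was 92.8%. SSA3 (YBL075C), the other stress-inducible copy, was at -0.36 and -0.56 on arrays 2 and 4 and at 0.79 and 0.31 on arrays 1 and 3. The sign of both genes thus followed the dye on every array, above 0 with Congo Red in Cy3 and below 0 with it in Cy5. That pattern was found in 16.4% of all tested reading frames, and also in SSA2 and HSP82. Their means were -0.14 ± 0.09 for SSA4 (95% interval -0.38 to 0.10, limma adjusted p = 0.351) and 0.05 ± 0.12 for SSA3 (95% interval -0.27 to 0.36, limma adjusted p = 0.814). The SD over the 4 arrays was 0.68 for SSA4 and 0.62 for SSA3, several times larger than either mean. That of HSP82 was close, at 0.59.

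The Ssb proteins are Hsp70s that sit on the ribosome and bind nascent chains. SSB2 (YNL209W) was at -0.14 and -0.12 on arrays 2 and 4 and at -0.12 and 0.042 on arrays 1 and 3, the narrowest range among the members with 4 values. Its mean was -0.08 ± 0.09 (95% interval -0.32 to 0.15, limma adjusted p = 0.553). SSB1 (YDL229W), its near twin, was empty on arrays 1 and 2. It was at -0.18 on array 4 and at -0.44 on array 3, so it was not tested and its value with Congo Red in Cy5 was the higher of the 2. SSE1 (YPL106C), an Hsp110 that exchanges nucleotide on Hsp70, was at 0.053 and -0.28 on arrays 2 and 4 and at 0.38 and 0.081 on arrays 1 and 3. Its mean of 0.06 ± 0.11 (95% interval -0.24 to 0.36, limma adjusted p = 0.746) was the highest among the tested members.

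HSP82 (YPL240C) codes for the stress-inducible Hsp90 and HSC82 (YMR186W) for the constitutive one. HSP82 was at -0.25 and -0.65 on arrays 2 and 4 and at 0.70 and 0.23 on arrays 1 and 3. HSC82 was at 0.020 and -0.55 on arrays 2 and 4 and at 0.47 and 0.12 on arrays 1 and 3. Array 4 was the lowest and array 1 the highest for both. Neither gene overlapped between orientations, in the order that 31.9% of all tested reading frames had. Their means were 0.0074 ± 0.13 for HSP82 and 0.015 ± 0.14 for HSC82 (limma adjusted p = 0.977 and 0.949). With a log base of 2, the 95% interval of HSP82 runs from 0.784-fold to 1.29-fold and that of HSC82 from 0.783-fold to 1.30-fold.

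HSP104 (YLL026W), the gene of the disaggregase, had the lowest values of the set on arrays 2 and 4. It was at -1.48 and -0.84 on arrays 2 and 4 and at -0.15 on array 3, and array 1 was empty. All 3 values lay below 0, and on arrays 2 and 4 only 0.416 and 0.461% of the measured reading frames were lower, while on array 3 that share was 45.5%. The array with Congo Red in Cy3 thus gave a value in the middle of its array. In a fit that accepts 3 values (limma with a dye term, 3677 reading frames), HSP104 had a mean of -0.65 ± 0.17 and was not called (adjusted p = 0.0914). The lone Cy3 value was there assumed to vary like the Cy5 values.

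The means of the 8 tested members ran, from low to high, SSA1, SSA2, SSA4, SSB2, HSP82, HSC82, SSA3 and SSE1. Neighbours in this order differed by 0.0076 to 0.092 log units. Only the gap between SSB2 and HSP82, the widest, exceeded the smaller SE of its pair (0.089), and it was below the larger (0.13). Each of the intervals but that of SSA1 included 0, which does not show that these transcripts were equal in both parts of a culture.

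The second question is how the inducible copies moved against their constitutive paralogs. Averaged over the 4 arrays, the classes had nearly equal means. The 4 inducible members with 4 values (SSA1, SSA3, SSA4 and HSP82) had a mean of -0.087 and the 3 constitutive ones (SSA2, SSB2 and HSC82) a mean of -0.087 as well, with a difference of -0.00041 ± 0.31 (SD over 4 arrays). It ranged from -0.11 to 0.095 with single arrays left out and was 0.058 with SSA1 in neither class. By array, the inducible class was lower by -0.29 and -0.24 on arrays 2 and 4 and higher by 0.32 and 0.21 on arrays 1 and 3. The inducible class therefore lay further from 0 than the constitutive class on every array, below it with Congo Red in Cy5 and above it with Congo Red in Cy3. This is given as a description, with no test.

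For single pairs, the exact sign-flip permutation test (two-sided) has too few sign patterns over 4 arrays to pass the threshold, and over 2 cultures it cannot go below 0.5, so none of the 5 pairs could pass. HSP82 minus HSC82 was -0.27 and -0.10 on arrays 2 and 4 and 0.23 and 0.11 on arrays 1 and 3, with a mean of -0.0076 ± 0.22 (SD, n = 4 arrays, exact permutation p = 1). SSA4 minus SSA2 was -0.32 and -0.27 on arrays 2 and 4 and 0.22 and 0.57 on arrays 1 and 3, with a mean of 0.05 ± 0.42 (exact permutation p = 1). Both differences changed sign with the dye. SSA3 minus SSA2 was 0.0039 and -0.079 on arrays 2 and 4 and 0.71 and 0.31 on arrays 1 and 3, with a mean of 0.24 ± 0.36 (exact permutation p = 0.375, and 0.833 after Benjamini-Hochberg adjustment over the 5 pairs). An exact permutation test of the orientations gave p = 0.333 for each of these 3 differences, the smallest that 2 arrays against 2 allow.

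SSA1 minus SSA2 was small and negative on all 4 arrays, at -0.14 and -0.052 on arrays 2 and 4 and -0.0099 and -0.078 on arrays 1 and 3. Its mean was -0.07 ± 0.06 (SD, n = 4 arrays) with the smallest p that an exact permutation test over 4 arrays can give, which is 0.625 after adjustment over the 5 pairs. Among the 8 members these 2 genes also had the closest profiles, with a Euclidean distance of 0.170 log units over the 4 arrays, followed by SSA3 and HSP82 at 0.188. SSB1 minus SSB2 was -0.056 on array 4 and -0.48 on array 3. The sources used here do not say what the probes were, and paralogs as alike as SSA1 and SSA2, SSB1 and SSB2 or HSP82 and HSC82 may hybridise to each other's probe, so small differences within these pairs are uncertain.

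**Figure D2:**
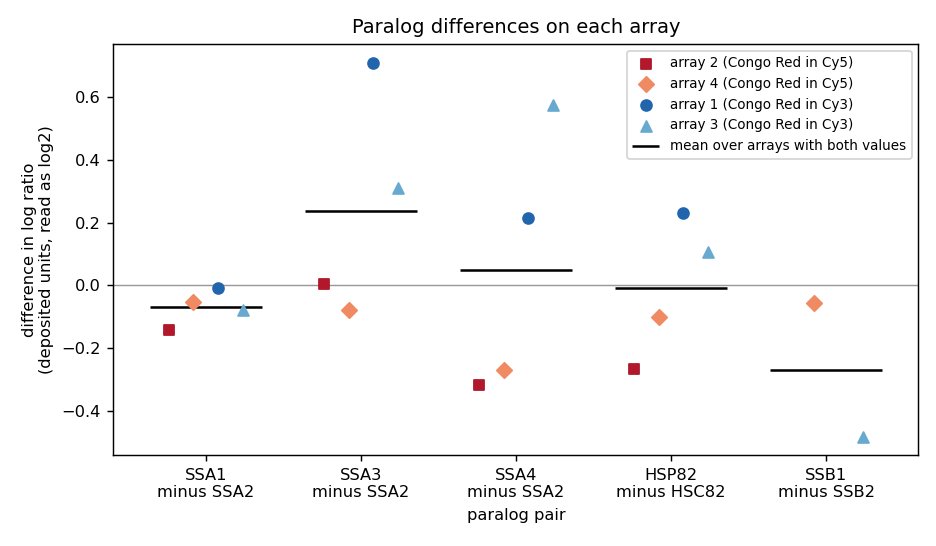
Differences in log ratio between paralogs on each array, in deposited units read as log2. Red and orange symbols are arrays with Congo Red in Cy5, blue symbols arrays with Congo Red in Cy3, and the line is the mean over arrays with both values. SSA4 minus SSA2 and HSP82 minus HSC82 lie below 0 with Congo Red in Cy5 and above 0 with Congo Red in Cy3, while SSA1 minus SSA2 lies between -0.14 and -0.0099.

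The dye swap also gives, for each gene, the difference between the orientations, here Congo Red in Cy5 minus Congo Red in Cy3. It was below 0 for all 8 members with 4 values. In all 8, both arrays with Congo Red in Cy5 lay below both arrays with Congo Red in Cy3, an order found in 31.9% of all tested reading frames. After centring or scaling the arrays it held for 7 of the 8, all but SSE1. In 4 of the 8 (SSA2, SSA3, SSA4 and HSP82) the sign itself differed, below 0 on both arrays with Congo Red in Cy5 and above 0 on both with it in Cy3, against 16.4% of all tested reading frames. The members' median difference was -0.54 log units, and that of all tested reading frames 0.027.

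Limma with a term for dye orientation, which takes the 4 arrays as independent (n = 2 arrays each), called 2 of the 8 members, SSA4 and SSA3, both below 0. The background was 16% of all tested reading frames called in either direction and 8.15% called below 0. SSA4 had a mean of -0.72 with Congo Red in Cy5 and 0.44 with it in Cy3, a difference of -1.15 ± 0.16 (moderated SE, limma adjusted p = 0.0226). Only 2.73% of the tested reading frames had a lower difference. SSA3 had means of -0.46 and 0.55 in the same order, a difference of -1.01 ± 0.21 (limma adjusted p = 0.0345), with 3.86% of the reading frames lower. HSP82 had means of -0.45 with Congo Red in Cy5 and 0.46 with it in Cy3 and missed the threshold (difference -0.91 ± 0.23, limma adjusted p = 0.0548).

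The next members in this order were HSC82 at -0.56, SSA1 at -0.52, SSA2 at -0.46, SSE1 at -0.34 and SSB2 at -0.095, with limma adjusted p-values of 0.0648 to 0.669. SSA4 and SSA3 differed by 0.14, and SSA3 and HSP82 by 0.096, each less than the SE of either gene in the pair, so these neighbours did not differ beyond their error. The arrays come in pairs from 2 cultures, and with the difference taken within cultures (limma, larger p of both pairings) 0 of the 8 members and 0 of the 3080 reading frames were called. The adjusted p was then 0.0832 for SSA4 and 0.0954 for SSA3, and 4 of the 8 and 857 of the 3080 had an unadjusted p below 0.05. Leaving out an array leaves 1 orientation with a single array, assumed to vary like the others. The difference of SSA4 was -1.19 without array 2 and -1.12 without array 4, and that of SSA3 was -1.11 and -0.91. Without array 1 and without array 3 it was -1.29 and -1.01 for SSA4, and -0.77 and -1.25 for SSA3. Whether a gene was called in these fits is not read, because 1 orientation then rests on a single array. Dye orientation and any other property that separates arrays 2 and 4 from arrays 1 and 3 cannot be told apart in this design.

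**Figure D3:**
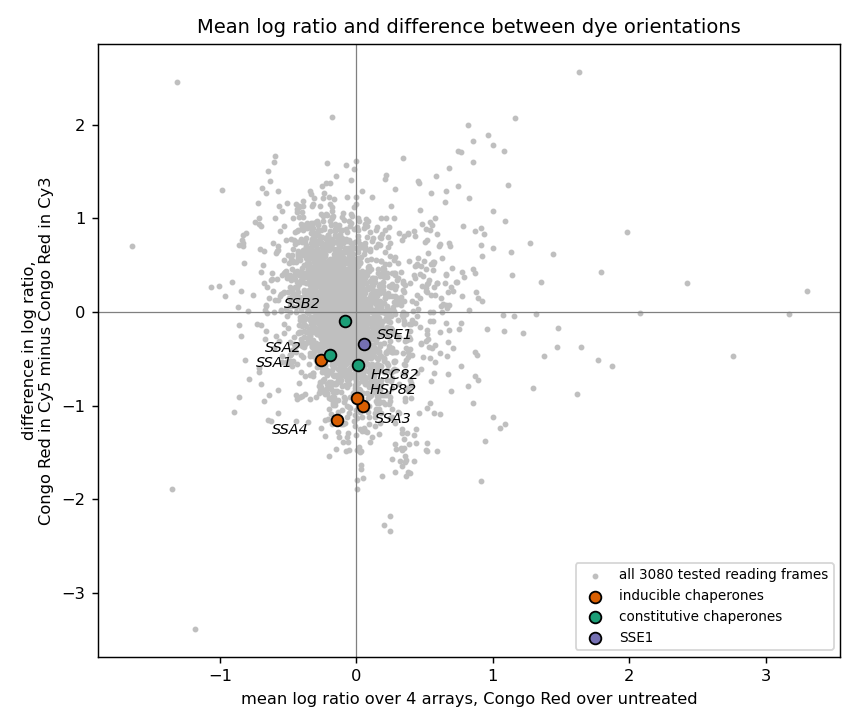
Mean log ratio over the 4 arrays (x axis, Congo Red over untreated) against the difference between dye orientations (y axis, Congo Red in Cy5 minus Congo Red in Cy3), both in deposited units read as log2. Each point is a reading frame, with all 3080 tested in grey and the 8 tested chaperones in colour. The chaperones lie between -0.26 and 0.059 on the x axis and between -1.15 and -0.095 on the y axis.

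The reading of the dye swap bears on these values. If the submitters had left arrays 2 and 4 as channel ratios, the size of the Congo Red difference would be the orientation difference divided by 2, and the mean would hold the dye. The mean size over 4 arrays would then be 0.58 log units for SSA4, 0.50 for SSA3, 0.46 for HSP82 and 0.23 for SSA2, each with a single sign on all arrays. The other 4 tested members would have sizes of 0.048 to 0.28 without a single sign. Limma on culture means is then the same test as that of the difference within cultures, with 0 calls. The difference between the classes would have a size of 0.26, SSA4 minus SSA2 one of 0.34 and HSP82 minus HSC82 one of 0.18. No direction is given for this reading.

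The genes that work with these chaperones were grouped into lists of Hsp70 partners, Hsp90 co-chaperones, organelle Hsp70 systems, small heat shock proteins, chaperonins and factors. Of 57 such genes in the table, 40 had a value on all 4 arrays. For Congo Red over untreated 0 of the 40 were called by limma on culture means, with 7 at an unadjusted p below 0.05, against 2.6% of all tested reading frames called and 807 of 3080 unadjusted. The limma fit to single arrays called 2 of the 40, CAJ1 and SCJ1, against 10.4% of all tested reading frames. For the orientation difference 11 of the 40 were called (27.5%), 10 of them below 0, beside 16% and 8.15% of all tested reading frames. Their median difference was -0.35 log units.

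Of 9 tested cytosolic Hsp70 partners 4 were called for the orientation difference, all below 0, beside 8.15% of all tested reading frames called below 0. CAJ1, a J protein gene, had the widest difference of them, at -0.26 and -0.29 on arrays 2 and 4 and at 1.09 and 0.94 on arrays 1 and 3. Its mean of 0.37 was not called on culture means (limma adjusted p = 0.119). The other 3, chosen for mention after their values were seen, were the J protein gene SIS1 at -0.998, SSE2, the paralog of SSE1, at -0.87, and the exchange factor gene FES1 at -0.86. SWA2, whose J protein uncoats clathrin vesicles, had a mean of 0.24 (limma adjusted p = 0.181).

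The ribosome-associated complex that works with the Ssb proteins had subunits of opposite orientation difference. SSZ1, coding for its Hsp70-like subunit, was at -0.34 and -0.26 on arrays 2 and 4 and at 0.62 and 0.58 on arrays 1 and 3. ZUO1, coding for its J protein, was at 0.057 and 0.14 on arrays 2 and 4 and at -0.25 and -0.31 on arrays 1 and 3. The differences were -0.90 for SSZ1 (limma adjusted p = 0.0244) and 0.38 for ZUO1, which was not called.

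Of 7 tested Hsp90 co-chaperones, 1 was called below 0 and 1 above 0 for the orientation difference, beside 16% of all tested reading frames called. They were SBA1 (p23) at -0.86 and TAH1, of the R2TP complex, at 0.66. AHA1, the activator of the Hsp90 ATPase, had the highest mean of the list at 0.48 and scattered most, with 0.69 and 0.54 on arrays 2 and 4 but 1.14 and -0.46 on arrays 1 and 3 (limma adjusted p = 0.242). HCH1, a relative of AHA1, had a mean of -0.26.

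Of 7 tested genes of organelle Hsp70 systems, 2 were called below 0 for the orientation difference, beside 8.15% of all tested reading frames. They were KAR2, the endoplasmic reticulum Hsp70, at -0.94 and ECM10, a mitochondrial Hsp70, at -0.71. SCJ1, coding for a J protein of the endoplasmic reticulum, lay above 0 on all 4 arrays, at 0.52 and 0.17 on arrays 2 and 4 and 0.51 and 0.94 on arrays 1 and 3, with a mean of 0.54 that was not called (limma adjusted p = 0.0828). SSC1, the main mitochondrial Hsp70 gene, lay below 0 on all 4, with a mean of -0.31 (limma adjusted p = 0.150).

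Among 10 tested chaperonins 2 were called below 0 for the orientation difference, beside 8.15% of all tested reading frames. They were CCT8 at -1.20 and CCT7 at -1.15, both subunits of the cytosolic folding chamber. TCP1 and the CCT genes not called lay between -0.40 and 0.22, though all CCT subunits enter the same ring complex. HSP60 and HSP10, which are not CCT subunits, were at 0.091 and 0.22. CCT5 and TCP1 had the lowest means of the list, -0.40 and -0.29, and were not called. Of 5 small heat shock proteins and relatives of Hsp104, 0 were called by limma for the orientation difference, beside 16% of all tested reading frames. At an unadjusted p below 0.05 were 2 of the 5, beside 1147 of all 3080 tested reading frames. HSP30, a membrane heat shock protein gene, had a mean of -0.62 and HSP31, a chaperone of the DJ-1 family, one of 0.24, neither of them called. HSF1 had values on arrays 4 and 3 alone, 0.16 and -0.57, MSN4 likewise at -0.37 and -0.72, and MSN2 was empty on all arrays, so these factors were not tested.

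**Figure D4:**
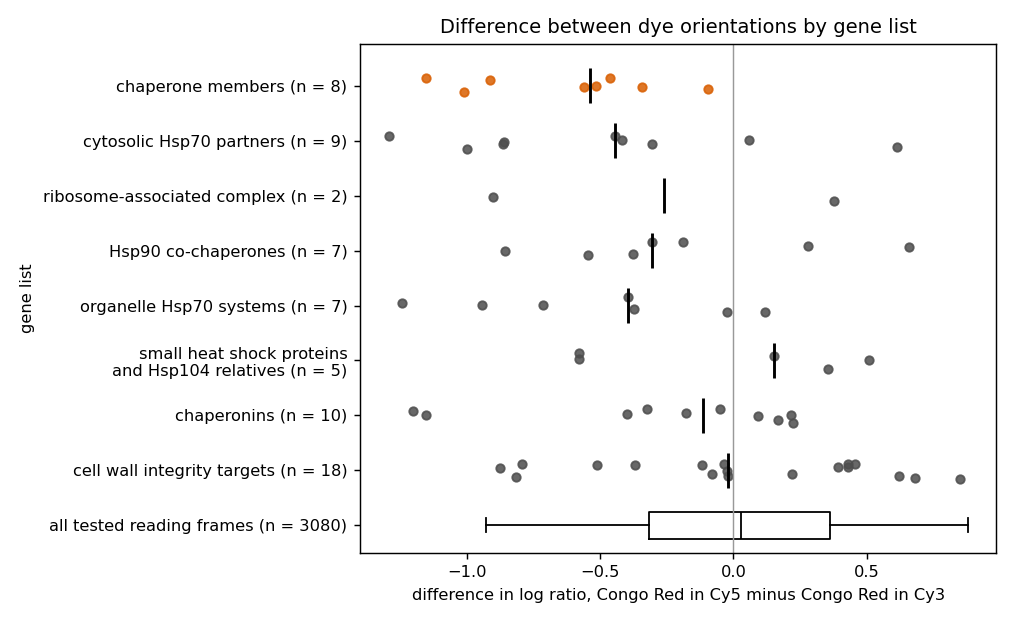
Difference between dye orientations (Congo Red in Cy5 minus Congo Red in Cy3, in log units) for the tested genes of each list. Points are genes, black lines list medians, and for all 3080 tested reading frames the box spans the quartiles with whiskers at percentiles 5 and 95. The 8 chaperones all lie below 0, with a median of -0.54, while the other lists have genes on both sides.

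For each tested member, the gene outside the set with the nearest profile over the 4 arrays was found by Euclidean distance. For SSA4 it was MAK16, a factor in making the large ribosomal subunit, at a distance of 0.203 log units. For SSA3 it was PRE9, a proteasome subunit gene, at 0.237, and for HSP82 the ribosomal protein gene RPL15A at 0.306. The limma test of the orientation difference called all 3 of these, at -1.12, -0.89 and -0.72. They were picked by the same 4 values, so these calls are no separate result. For HSC82 the nearest was UBA1, the ubiquitin-activating enzyme gene, at 0.152. SSA1 was nearest to ATG42, coding for a vacuolar carboxypeptidase, at 0.099, and SSA2 to LSM7, coding for a subunit of the Lsm ring on RNA, at 0.070. SSB2 was nearest to NOP56, coding for a nucleolar RNP protein, at 0.063, and SSE1 to CDC60, the cytosolic leucyl-tRNA synthetase gene, at 0.147. None of the 8 nearest genes belonged to the partner lists, which hold 40 of the 3080 tested reading frames, so this count says little. A distance over 4 arrays is a weak measure of likeness, and it was not tested.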

How the data were processed

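Values were the log ratios of the table deposited by the authors, taken as log2 and not changed. The sources used here do not state the scanner, probes, background correction, normalization, log base, numerator or the rule behind empty cells. Of 6209 rows, 2 control rows were left out. Symbols came from the RefSeq gene table of assembly R64 by systematic name (5654 of 6207 matched). No sequence or coordinate is given, and the promoter motifs planned were not searched, because no sequence was used here.

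The members and gene lists were chosen with earlier results of these data known. Named genes are the members, in each list those called or else the 2 with the largest mean, and each member's nearest gene. Others are marked as chosen after their values were seen, or are those called for the orientation difference.

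The 2 arrays of a culture were averaged for each way of pairing arrays of opposite dye (array 2 paired to 1 or to 3), and fitted with limma 3.58.1 in R 4.3.3 (lmFit, eBayes). The larger p and SE and the wider 95% interval were kept, with Benjamini-Hochberg adjustment over 3080 reading frames, two-sided, threshold 0.05. The orientation difference came from limma on 4 arrays with a dye term. Nothing says the cultures were independent beyond being 2 cultures. Alternatives were array centring and scaling, turned arrays, other fits and pairings, and leaving out each array.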

Additional observations from a re-analysis of the deposited data

Results flagged for a closer look

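Of 33 groups of 4 values examined for a sample far from the others, 1 stood out. SSB2 was at 0.042 on array 3, with the other 3 arrays between -0.14 and -0.12, so the gap took 0.858 of the range, above Dixon's 95% critical value for 4 samples. Chance marks about 1 in 20 such groups. The whole range of SSB2 is narrow, and the value moves its mean of -0.08 by less than its SE.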

How the results depend on the processing

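With the values as deposited, 80 reading frames were called for Congo Red, and this count moved widely: 32 after centring (which shifts the median of all genes by 0.12), 42 after scaling, 0 with arrays 2 and 4 turned, 320 and 36 on 4 arrays with and without a dye term, 787 with arrays 1 and 4 as a culture, 214 with 3 values allowed, and 13 to 823 when single arrays were left out. The share of calls above 0 was 58.8% as deposited, 93.8% after centring and 85.7% after scaling. Of the chaperones 0 were called throughout, except 1 (SSA1) with arrays 1 and 4 as a culture. For the orientation difference 2 members were called, in a fit that called 493 of 3080 reading frames. With a robust prior HSP82 was the third (limma adjusted p = 0.0498), in a fit that called 514 of 3080. Its difference ran from -1.15 to -0.68 with single arrays left out. With arrays 2 and 4 turned, all 8 members shared a sign that is not read as a direction, with sizes of 0.26, 0.23, 0.58 and 0.048 for SSA1, SSA2, SSA4 and SSB2, whose sign was then opposite to that as deposited, and 0.027 for SSA1 minus SSA2. SSB2 lay above 0 after centring (0.035) and scaling (0.025). Means near 0 changed sign with the array left out, from -0.074 to 0.16 for SSA3, -0.023 to 0.14 for SSE1, -0.11 to 0.13 for HSP82 and -0.13 to 0.16 for HSC82. The number of members with both Cy5 arrays below both Cy3 arrays, recomputed after seeing the data, was 8 as deposited and 7 after centring or scaling. Signal over background cannot be seen in ratios, and 2 cultures limit every value.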
